A study of Drosophila melanogaster with 3 samples.

Results

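Wnt signalling passes a secreted ligand's message through a small set of cytoplasmic and nuclear proteins, and 10 Drosophila melanogaster genes for that machinery are described here by where the CG15514 protein was recovered around them. The genes are Axn, Apc, Apc2, sgg, CkIalpha, slmb, arm, dsh, pan and arr, which are 10 of the 13945 protein-coding genes on the 6 chromosome arms used. They were selected on their place in the pathway, with the height of the Axn peak already known from the same lists. Axn's signal and rank are therefore given as a description. The data are ChIP-seq with an anti-GFP antibody on flies of the strain CG15514-GFP, which express CG15514 with eGFP (the tag, a fluorescent protein) fused to its C terminus. Whole embryos of mixed sex, 0 to 24 hours old, gave 3 biological replicates, and these 3 samples form 1 group with no second condition. The line is transgenic, the embryos hold many cell types, and no list from untagged flies was used here. More cells bound and more binding per cell cannot be told apart in such samples. Summits were taken from the authors' thresholded list of 8708 peaks on build dm6. IDR, the method behind that list, keeps peaks whose rank is reproducible. Ranks come from the 3 replicate lists of 30000 entries each. Signal is the peak height of the authors' caller and has no common scale between lists, so it is read within a list only. The lists carry no read counts, and the depth per sample is unknown.

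In the absence of a Wnt ligand, Axin and the APC proteins hold beta-catenin, the product of arm, for phosphorylation by the kinases of CkIalpha and sgg. The F-box protein of slmb then marks it for breakdown. Ligand bound to Frizzled and to arrow, the LRP co-receptor made from arr, recruits Dishevelled from dsh and stops this destruction complex. Armadillo then reaches the nucleus and acts with the TCF factor made from pan. In the embryo this pathway is known for setting segment polarity.

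The sequence at the Axn promoter is shown first, with those at 3 neighbouring promoters, because a GAAC motif recurs among them. The motif searched was GAACCAG or GAACTAG, on both strands, in the 100 bp to each side of a summit. It was taken from earlier results on these lists. At Axn it is part of a 10-base inverted repeat, in which GAAC and its reverse complement GTTC stand on either side of the bases CA. In the lines below, capitals mark a motif match, all sequences are on the plus strand of dm6, and exonic DNA is limited to 30 bases around a match.
Axn, upstream stretch, chr3R:30022702-30022841: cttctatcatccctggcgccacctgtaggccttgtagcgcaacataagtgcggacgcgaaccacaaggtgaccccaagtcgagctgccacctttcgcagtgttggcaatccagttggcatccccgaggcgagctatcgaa
Axn, start site, chr3R:30022828-30022857: ggcgagctatcGAACCAGTTCgatttcgaa
ZIPIC, chr3R:30036884-30036913: gacgatgtgatCTGGTTCaatttccaaatt
WASp, beside Apc, chr3R:28832025-28832155: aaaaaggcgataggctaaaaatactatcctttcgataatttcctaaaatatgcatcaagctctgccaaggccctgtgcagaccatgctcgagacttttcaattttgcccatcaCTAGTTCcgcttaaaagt
Bdbt, beside slmb, chr3R:21118857-21119056: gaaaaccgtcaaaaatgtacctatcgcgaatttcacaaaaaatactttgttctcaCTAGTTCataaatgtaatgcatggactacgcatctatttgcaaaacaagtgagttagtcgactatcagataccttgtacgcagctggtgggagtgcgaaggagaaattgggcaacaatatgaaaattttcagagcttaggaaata

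The promoters of slmb, dsh, Apc and CkIalpha are shown because they hold core promoter elements and no GAAC motif. The elements searched were TATCGATA, the DNA replication-related element (DRE) bound by Dref, and GGTCACAC, the core of Ohler motif 1 bound by M1BP. GGTCACAC was also found at the ZIPIC and WASp summits, outside the stretches printed for them.
slmb and CG5793, chr3R:21127486-21127572: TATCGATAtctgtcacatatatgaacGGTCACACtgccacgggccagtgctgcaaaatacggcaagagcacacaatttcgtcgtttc
dsh, chrX:11355747-11355880: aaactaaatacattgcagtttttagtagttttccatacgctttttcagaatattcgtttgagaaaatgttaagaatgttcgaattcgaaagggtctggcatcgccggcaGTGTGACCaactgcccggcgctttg
Apc and spg, chr3R:28845080-28845269: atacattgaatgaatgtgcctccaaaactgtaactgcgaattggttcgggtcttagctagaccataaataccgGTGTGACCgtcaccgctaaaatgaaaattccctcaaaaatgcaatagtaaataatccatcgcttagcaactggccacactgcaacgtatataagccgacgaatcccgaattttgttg
CkIalpha, chrX:12653827-12653856: ctatcgggcccTATCGATAtaagcaaaagc

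A summit of the thresholded list lay no more than 500 bp from an annotated transcription start site (TSS) in 9 of the 10 genes, and pan was without one. Such a summit is called a promoter summit. The share over all protein-coding genes was 42.9%. All 10 had at least 1 summit in the gene body or within 2000 bp of it, against 59.1% of protein-coding genes. The 10 genes are long, with a median of 10847 bp against 2166 bp for all protein-coding genes, and long genes offer more room for a summit. They also differ in their number of start sites, which moves the background. Among protein-coding genes with 1 annotated TSS position, 36.4% had a promoter summit, and all 4 such genes of the pathway, Apc2, slmb, dsh and arr, had it. With 2 to 3 positions the share was 58.6%, and Axn and Apc both had a summit. With 4 or more it was 79.3%, and 3 of 4 had a summit, pan being the exception. No test was made, since the genes were chosen with these lists known.

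The 10 genes held 29 distinct summits. Of these, 13 were at the gene's own promoter, 9 lay only at the promoter of a neighbouring gene, and 7 lay at no promoter, 6 of them in introns. The own-promoter share was 44.8%, close to the 44% over all 16408 pairs of a protein-coding gene and a summit in or near it. The neighbour share was 31% against 33.1% over those pairs. Of the own-promoter summits, 10 lay before the nearest TSS and 3 after it. The upstream share was 76.9%, against 84.3% of the 7216 promoter summits counted over all protein-coding genes. In 5 genes, Apc, Apc2, slmb, arm and dsh, the strongest nearby summit belonged to the promoter of another gene. In 4, Axn, CkIalpha, sgg and arr, it belonged to the gene's own. How often either holds over all protein-coding genes was not counted, so these counts are not read as a trait of the pathway.

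**Figure D1:**
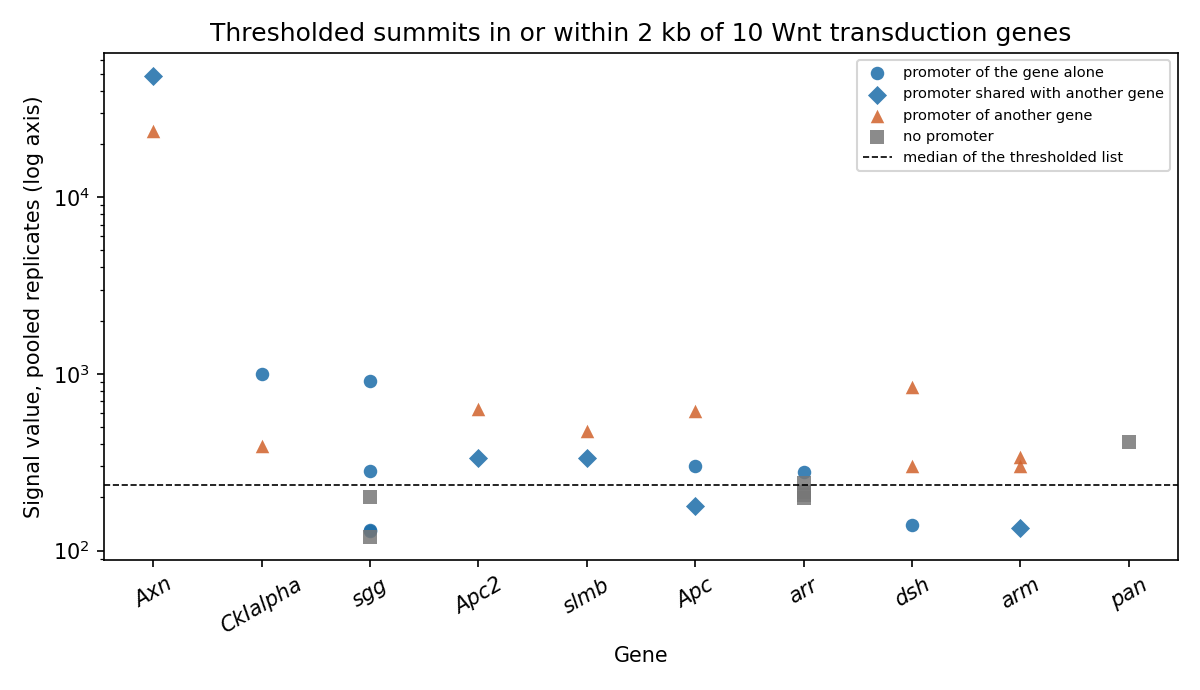
Signal value of each of the 29 thresholded summits (vertical axis, log scale, caller's units) by gene (horizontal axis, ordered by the strongest summit at the gene's own promoter, with pan last). Marker shape gives the kind of promoter at the summit and the dashed line is the median of the thresholded list, 236.4. The Axn promoter summit, 48442, and the ZIPIC promoter summit plotted under Axn, 23730, stand above all others, of which the highest is 992.2.

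Axn encodes Axin, the scaffold on which the destruction complex assembles. Its gene (FBgn0026597) lies on 3R from 30022842 to 30035311 on the plus strand. The summit at 30022802 lay 40 bp upstream of the first of 2 TSS positions, in a peak from 30021985 to 30023328. Its signal was 13161, 11112 and 24225 in replicates 1, 2 and 3, where it ranked 8, 8 and 9. In the pooled data the signal was 48442, rank 9 of 8708 and 68.6% of the strongest peak. Against the strongest entry of each replicate list the height was 68.9% ± 5.52 (mean and SD, n = 3). The replicate summits were 0, 0 and 5 bp away from the pooled position. The peak was 1344 bp wide, and the median width of the thresholded list was 424 bp.

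The Axn summit is shared. RpS28a, a gene for a protein of the small ribosomal subunit, has its TSS 194 bp from that of Axn and 154 bp from the summit. The peak cannot be given to either gene alone. The inverted repeat printed above spans 30022839 to 30022848, so it covers the annotated first base of Axn, and the centre of GAACCAG lies 40 bp from the summit. The second TSS of Axn, at 30027361, had no thresholded summit within 500 bp. The nearest entry of the pooled list lay 952 bp from it, with a signal of 72.87 and rank 13747.

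The 3 thresholded summits whose ranks were most like those of Axn over the 3 replicate lists were at Dph1, at Polr1B, and between Sbat and Prx6a. The summed rank differences were 4 each. Dph1 is an enzyme of diphthamide synthesis, and Polr1B is a subunit of RNA polymerase I. Their pooled signals were 50212, 48903 and 47783.

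A further strong summit stood beyond the 3′ end of Axn, at the promoter of ZIPIC, a zinc-finger protein of insulators. It lay at 3R 30036865, 1554 bp past the gene and 5 bp from a ZIPIC TSS, in an annotated 5′ UTR. Its ranks were 87, 78 and 86 in replicates 1, 2 and 3, and 84 in the pooled data. The signals were 6404, 5514 and 11822 in the replicates and 23730 pooled. The Axn summit was 2.06, 2.02 and 2.05 times as high in the 3 lists, a mean of 2.04 ± 0.0215 (SD, n = 3). The summits were 14063 bp apart, and no thresholded summit lay between them. The pooled list held 8 weaker entries in that stretch. The ZIPIC summit also marks the edge of the 2000 bp rule, being the farthest from its gene of those included. The first one excluded lay 2086 bp from pan, at the promoter of the ribosomal protein gene RpS3A, with a signal of 593.2.

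The kinases came next. CkIalpha encodes the priming kinase of beta-catenin (FBgn0015024, X 12653626 to 12657834, plus strand). Its summit at 12653746 lay in an annotated 5′ UTR, within 500 bp of 3 of its 5 TSS positions. Signals were 214.7, 216.3 and 560.7 and ranks 628, 616 and 541 in replicates 1, 2 and 3. The pooled signal was 992.2, at rank 566. No other gene had a TSS within 500 bp. The DRE printed above was centred 95 bp from this summit. A second summit near the gene, with a signal of 391.2, was at the promoter of Tis11, an RNA-binding zinc-finger protein, and of lncRNA:CR33963.

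The gene sgg encodes shaggy, the GSK-3 kinase (FBgn0003371, X 2633952 to 2679553, plus strand, 11 TSS positions). It held the most summits of the 10 genes, namely 6. The strongest was not at the first start site but at an internal one, the ninth, 181 bp upstream of it and in an intron. That summit, at 2646456, had signals of 170.4, 234.6 and 506.2 and ranks of 860, 564 and 617 in replicates 1, 2 and 3. The pooled signal was 911.8, rank 634. The summit at the first TSS, 33 bp upstream, had a pooled signal of 283.6 with ranks 4266, 3756 and 3365. Weaker summits lay 2 bp from the tenth TSS, with 131.6, and 89 bp from the fifth, with 129.8. That at the tenth TSS ranked 8566, 9660 and 7626, and replicate 1 had no summit within 100 bp of that at the fifth. The other 2 lay in introns, with 200.5 and 119.3. The summit of 119.3 is the weakest of the 29, at rank 8684, and replicate 2 had no summit within 100 bp of it. The strongest entry of the 10 genes below the threshold was also in sgg, with 111 at rank 9256.

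The Axn summit, whose height was known when the genes were chosen, was far above those of the kinases in each replicate list. It was 61.3, 51.4 and 43.2 times as high as CkIalpha in replicates 1, 2 and 3 (mean 52 ± 9.06, SD, n = 3), and 77.2, 47.4 and 47.9 times as high as sgg (57.5 ± 17.1). The replicate ranks of Axn did not overlap with those of CkIalpha. The ranks of CkIalpha and sgg overlapped, so their order is not larger than the spread between replicates.

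**Figure D2:**
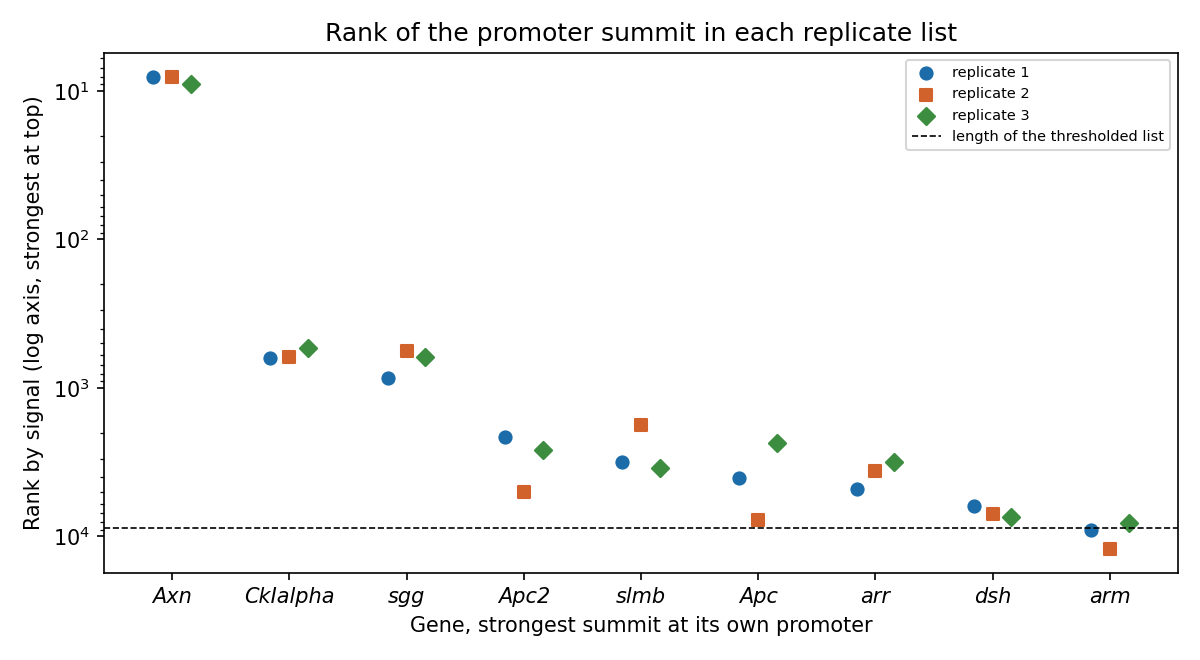
Rank by signal (vertical axis, log scale, strongest at the top) of the strongest own-promoter summit of 9 genes in each of the 3 replicate lists; each point is 1 replicate and the dashed line marks rank 8708. The ranks of Axn are 8, 8 and 9, those of CkIalpha and sgg lie between 541 and 860, and those of arm between 8170 and 12136.

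The APC scaffolds had promoter summits near the middle of the list. Apc (FBgn0015589, 3R 28832301 to 28844748, minus strand) had its strongest own summit at 28844650, 98 bp into the gene in the 5′ UTR. The signals were 59.3, 35.1 and 202.6 in replicates 1, 2 and 3, with ranks of 4037, 7704 and 2329. The pooled signal was 302.3. The second own summit lay in intergenic DNA upstream of the gene and 90 bp from a TSS of spg, a guanine nucleotide exchange factor of the DOCK family. Its pooled signal was 178, its ranks were 10552 and 3378 in replicates 1 and 2, and replicate 3 had no summit within 100 bp of it. At the second TSS of Apc the nearest pooled entry, 76 bp away, had 81.34 and did not reach the threshold.

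Apc2 (FBgn0026598, 3R 24163966 to 24168264, plus strand) had a summit 200 bp upstream of its single TSS, shared with mRpS24, a gene for a mitochondrial ribosomal protein. Its signals were 93.1, 51.2 and 189.3 and its ranks 2136, 5028 and 2603 in replicates 1, 2 and 3, with a pooled signal of 336.1. The rank ranges of Apc and Apc2 overlapped. Both had a stronger summit at their 3′ neighbour. That at WASp, an activator of actin branching, had 616.7 pooled and ranks 936, 1009 and 1169. That at CG5510 had 630.1 and ranks 835, 994 and 1204.

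The gene slmb (FBgn0283468, 3R 21119252 to 21127485, minus strand) had a summit 25 bp upstream of its single TSS and 63 bp from that of CG5793. Signals were 71.9, 105.7 and 155.9 and ranks 3141, 1763 and 3438 in replicates 1, 2 and 3, with a pooled signal of 333.5. The stretch between these 2 start sites is the 87 bases printed above. It begins at the base next to the slmb TSS and holds a DRE and a GGTCACAC, centred 21 bp and 5 bp from the summit. The summit at the 3′ neighbour Bdbt, named for its binding of the kinase Doubletime, had 472.7, with ranks 1288, 1721 and 1821.

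By the pooled signal of the strongest own-promoter summit of each gene, the transducers arm and dsh stood lowest of the 9 genes with one. In replicate 2, Apc was lower than dsh, at rank 7704 against 7066. The summit of arm (FBgn0000117, X 1891401 to 1900646, minus strand) lay 4 bp from the first of 4 TSS positions, with asRNA:CR45929 at 126 bp. Its ranks of 9050, 12136 and 8170 put it within the strongest 8708 entries of replicate 3 alone. Its signals were 27.6, 22.9 and 72.7 in the replicates and 133.6 pooled. Stronger summits stood at both neighbours. That between Ldaf1 and asRNA:CR43864 had 339.2, and that between mRpL16 and trr, a histone methyltransferase gene, had 300.1.

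The summit of dsh (FBgn0000499, X 11355881 to 11358724, plus strand) lay 34 bp upstream of its only TSS. Its signals were 39.9, 37.9 and 81 and its ranks 6234, 7066 and 7355 in replicates 1, 2 and 3. The pooled signal was 139.5. All 3 ranks were within 8708. The nearest GGTCACAC match was centred 12 bp from the pooled summit. The summits of replicates 1, 2 and 3 were offset from the pooled one by -92, 23 and 68 bp, so that distance is loosely placed. The other 2 summits within 2000 bp of dsh belonged to Pa1, with 840.8 and 301.3, and the first had ranks of 658, 790 and 694.

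The receptor and the nuclear end of the pathway are arr and pan. The co-receptor gene arr (FBgn0000119, 2R 13453640 to 13483229, minus strand) had a summit 11 bp upstream of its only TSS. Its signals were 51.4, 66 and 166.4 and its ranks 4780, 3601 and 3130 in replicates 1, 2 and 3, and the pooled signal was 280.2. A GGTCACAC match was centred 23 bp away. The other 4 summits were intronic and at no promoter, at 851, 10492, 10714 and 16150 bp into the gene, with pooled signals of 199.5, 206.7, 240.1 and 215.3. Replicate 1 had no summit within 100 bp of the one at 10714 bp.

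The TCF gene pan (FBgn0085432, chromosome 4, 69326 to 114270, plus strand) was the exception at its own promoters. Its single summit lay 623 bp upstream of the first of 4 TSS positions, at 68703, in intergenic DNA. The ranks were 2426, 1916 and 1980 in replicates 1, 2 and 3 and the signals 85.8, 100.8 and 226.2, with 411.1 pooled. It was thus reproducible in rank and lay just outside the 500 bp window. An entry 8 bp from the first TSS stood at 47.11 and rank 21527 of the pooled list, far below the threshold.

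**Figure D3:**
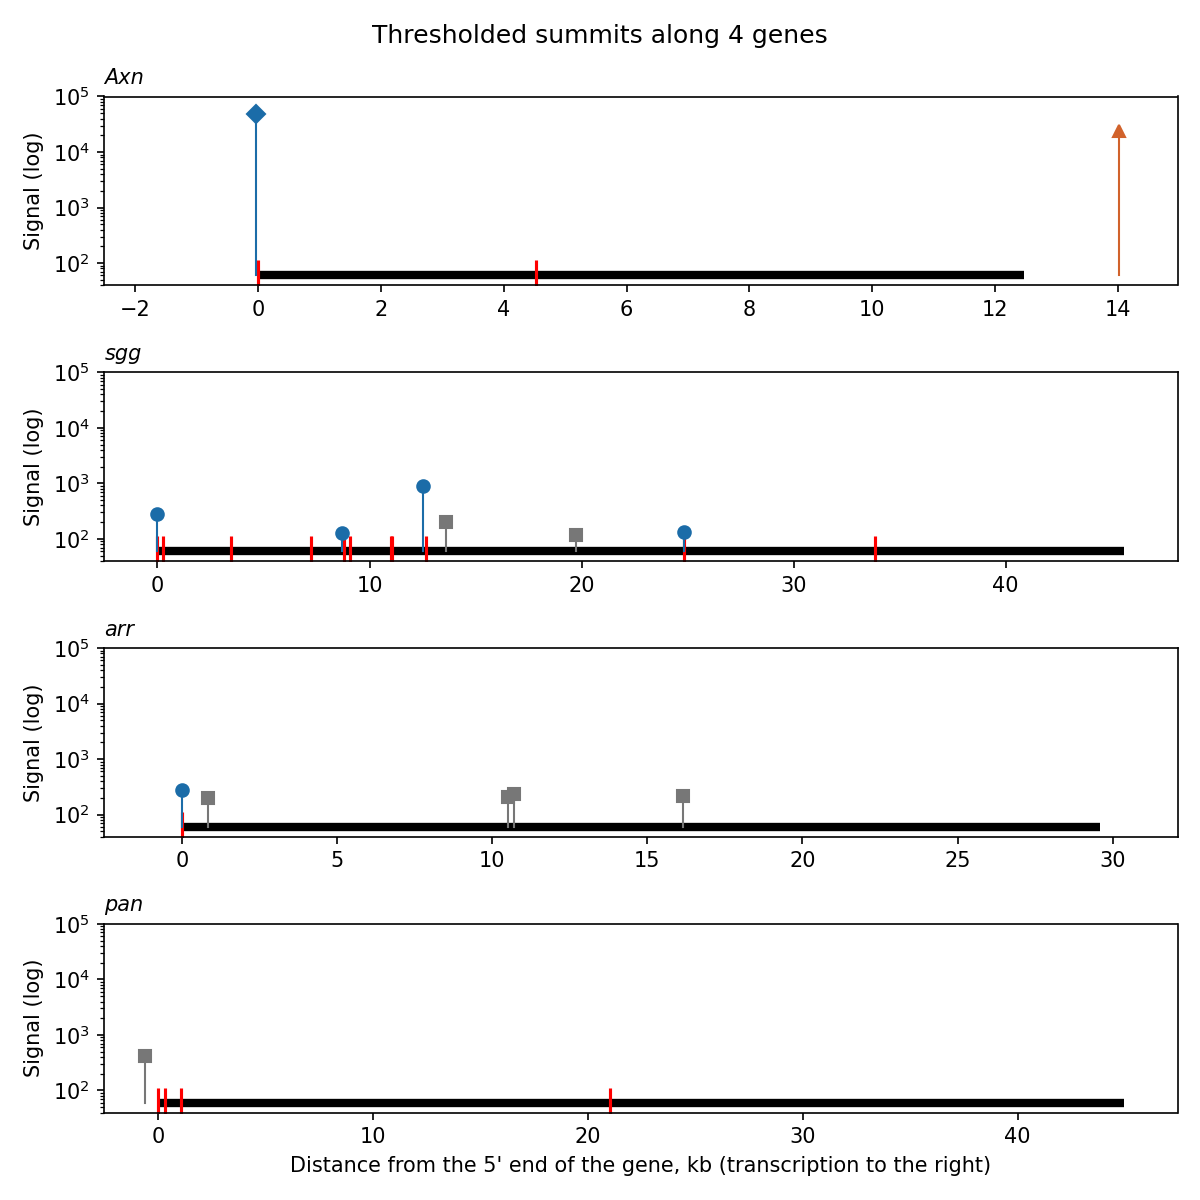
Thresholded summits along Axn, sgg, arr and pan, by distance from the 5′ end of the gene in kb (horizontal axis) and pooled signal (vertical axis, log scale). Black bars are gene bodies, red ticks are TSS positions, blue marks are summits at the gene's own promoter (diamond where shared), orange triangles those at another gene's promoter and grey squares those at no promoter. The strongest summit of sgg is internal, arr has 4 intronic summits, and the summit of pan lies 623 bp upstream.

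Set against the middle of each list, Axn stood far apart from the other 8 genes with a promoter summit. Its height was known when the genes were chosen and its summit is shared with RpS28a, so this is description only. Each replicate's signal was divided by the median of its own 8708 strongest entries. The ratio was 205 ± 27.4 for Axn, 3.98 ± 0.275 for CkIalpha, 3.68 ± 0.545 for sgg, 1.44 ± 0.352 for slmb and 1.34 ± 0.401 for Apc2 (mean and SD, n = 3 throughout). It was 1.12 ± 0.177 for arr, 1.08 ± 0.469 for Apc, 0.667 ± 0.0489 for dsh and 0.484 ± 0.0788 for arm. Neighbours in the order by pooled signal from Apc2 through slmb and Apc to arr overlapped in their replicate ranks. The ranks of sgg were all stronger than those of Apc2, those of arr than those of dsh, and those of dsh than those of arm. The ranks of Apc overlapped those of dsh, so that order is not larger than the spread between replicates. The median own-promoter signal was 333.5 over the 9 genes and 317.9 without Axn. The median strongest promoter signal was 314.6 over all protein-coding genes that had a promoter summit. Of the 29 summits, 27 were below 1000. By gene, Axn alone of the 9 had a promoter summit of 1000 or more, against 10.8% of protein-coding genes with a promoter summit.

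A replicate was counted as supporting a summit where 1 of its 8708 strongest entries peaked no more than 100 bp away. Of the 29 summits, 22 were supported in all 3 replicates, against 64.2% of the thresholded list, 4 in 2 replicates and 3 in 1. The strongest own-promoter summit was supported in all 3 for 8 of 9 genes, the exception being arm. Of all protein-coding genes, 42.9% had a promoter summit and 34.5% had one supported in all 3. Most genes with a promoter summit thus had a supported one, and the count is not read as a trait of the pathway. Below the threshold, the pooled list held 48 further entries in or near the 10 genes, of which 5 had a summit within 100 bp in every full replicate list. The same share over all pooled entries below the threshold was not counted.

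Several of the promoters are shared with a neighbour, as many fly promoters are. The strongest own-promoter summit was within 500 bp of another gene's TSS in 4 of 9 genes, Axn, Apc2, slmb and arm, against 55.1% of protein-coding genes with a promoter summit. A protein-coding TSS of another gene lay within 1000 bp for 4 of the 10, Axn, Apc, Apc2 and slmb, against 42.9% of all.

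The GAAC motif was within 100 bp of 4 of the 29 summits, those shown at Axn, ZIPIC, WASp and Bdbt, and of 6.47% of all thresholded summits. It was near 3.62% of the 19252 protein-coding TSS positions in windows of the same 201 bases. Among the 13 own-promoter summits it was found at Axn alone. The inverted repeat, searched as GAAC and GTTC with C or T and then A or G between them, was found at Axn alone of the 29, near 1.63% of thresholded summits and 0.442% of TSS positions. The DRE was at 3 of the 29, CkIalpha, slmb and the summit between mRpL16 and trr, against 7.54% of thresholded summits and 6.45% of TSS positions. GGTCACAC was at 6, namely slmb, dsh, arr, ZIPIC, WASp and the weaker Apc summit, which is shared with spg, against 6.28% and 5.68%. The DRE and GGTCACAC share no bases at slmb. CTTTGAT, the core of the site bound by TCF, the product of pan, was at 1 summit, that at the ninth TSS of sgg, against 2.72% and 3.28%. CAGCCCTG was at 0 of the 29, and at 2.35% of thresholded summits. Counts of this size allow no statement about the pathway as a whole.

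Other genes of the pathway were taken from a list of 54 by role, and 34 of them had a summit at a promoter of their own. That is 63% against the background of 42.9%, which is not matched to their number of start sites. The ligands stood at the low end, with 1 of 7. All 7 have 1 annotated TSS position, for which the share over protein-coding genes was 36.4%. Only Wnt5 had a promoter summit, with a signal of 199.8 and ranks 6586, 4104 and 5954. Wnt10 and Wnt2 had none, and neither did wg, the main ligand of the segment polarity pathway, which had no summit within 2000 bp either. Among regulators of ligand release and the extracellular space it was 4 of 6, led by wls, the sorting receptor for Wnt secretion, with 422.1 (shared with Adck5). The glypican genes dlp and dally had 256.9 and 242.6. Notum, a Wnt deacylase, and por, which acylates Wnt, had none.

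Receptors had a promoter summit in 4 of 7 genes, with 356.2 at fz3, 280.1 at fz4 and 195 at drl. The receptor genes Ror and fz had none at a promoter, although fz held 8 summits in its body or flanks. Cytoplasmic regulators had it in 9 of 11, with 1728 at mts (the catalytic subunit of PP2A, shared with Rack1), 1158 at the casein kinase gene gish and 508.9 at dgo (shared with Prosbeta5). CkIIalpha and Tnks had none. Of the partners of slmb in the SCF ubiquitin ligase, SkpA had 264.9 (shared with Hmt4-20), Cul1 had 189.8 (shared with CG12159) and Roc1a had none. The planar polarity genes Vang, pk and stan all had promoter summits, of 193.7, 166.3 and 155.9. None of these summits was supported in every replicate. The rank was 14342 for Vang and 11226 for stan in replicate 1, and 9628 for pk in replicate 3. Their other replicate ranks lay between 4390 and 7260.

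Nuclear cofactors had a promoter summit in 11 of 17. The gene gro, for the Groucho corepressor that acts with TCF, had the strongest promoter summit of the 54 genes. Its signal was 26636, 65 bp upstream of a TSS, at ranks 71, 67 and 67 in replicates 1, 2 and 3. The chromatin remodeller gene brm had 1017 (shared with Arl1) and pygo, an Armadillo cofactor, 871.5 (shared with rod). Cby and Chi had none. For these other Wnt genes the motifs were counted at 1 promoter summit per gene, 34 in all. Further promoter summits of dco, wdb, gro, hyx and ebd2 were not included. Of the 34 summits searched, the GAAC motif was at 3, those of gro, nkd and dco, with signals of 26636, 294.4 and 285.2. The DRE and GGTCACAC were each at 3 as well, and the share over all thresholded summits was 6.47% for the GAAC motif, 7.54% for the DRE and 6.28% for GGTCACAC.

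**Figure D4:**
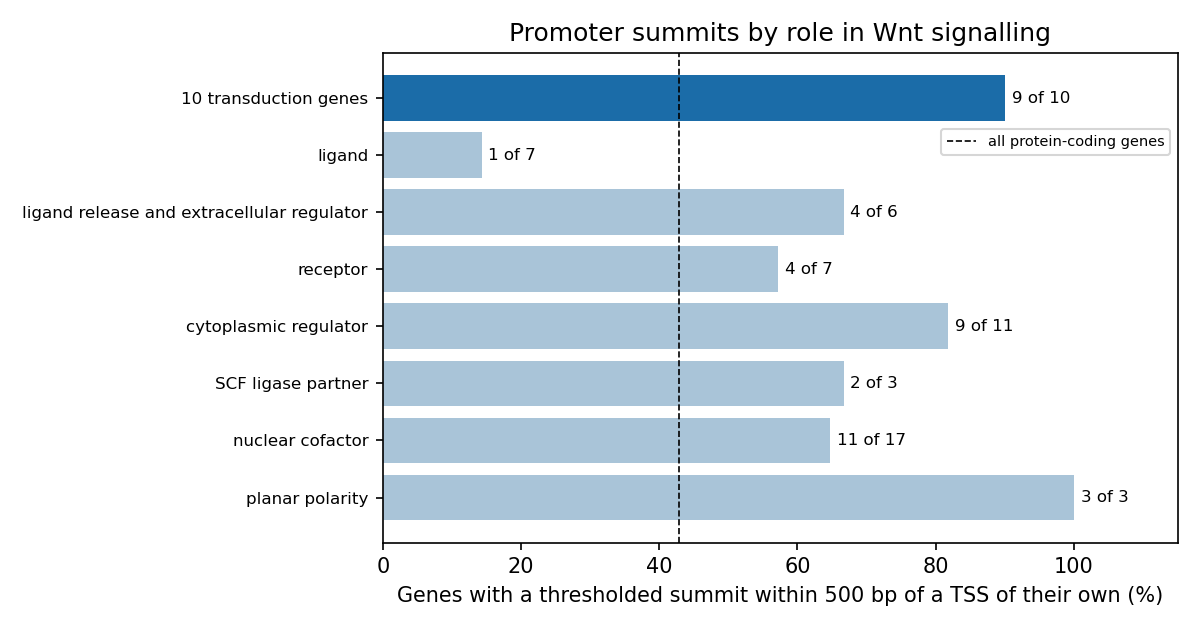
Share of genes with a promoter summit, no more than 500 bp from their own TSS (horizontal axis, %) for the 10 transduction genes (dark bar) and for the other Wnt genes by role (light bars), with counts at the bar ends. The dashed line is the share over all protein-coding genes, 42.9%, not matched to the number of start sites. Ligands, with 1 of 7, are below it, and the other roles are above it. Support in the replicates was not required, and no planar polarity summit was supported in every replicate.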

How the data were processed

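The authors deposited narrowPeak lists from ChIP-seq on 3 biological replicates. Per the deposited file descriptions, each replicate list was called on that replicate's alignment and a control, the pooled list on all 3, and the thresholded list by IDR from these. The deposited signal values are peak heights, the deposited significance is a −log10 q capped within each list, and a further deposited column gives the summit position. The aligner, peak caller and IDR cutoff were not given in the sources used here. Fragments were 200 to 800 bp, per the labels. The dm3 lists were not used. All 8708 thresholded entries are the strongest 8708 of the pooled list, and 0 intervals ran past the Release 6 arms.

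Summits were placed with Ensembl 115 annotation (BDGP 6.54) in Python 3.11.15 and numpy 2.4.6, leaving out transposable elements, and read against the NCBI Release 6 sequence. A promoter was 500 bp around any annotated TSS. Ranks are by signal. A replicate rank is that of the strongest summit within 100 bp. The members, the list of other Wnt genes and the motifs were chosen with earlier results of these data known, so counts are set beside all protein-coding genes and no test was made. Of the 54 other genes, Cby was matched by synonym. Named genes were the members, genes sharing their summits, the 3 summits most like Axn in rank, and, by role, up to 3 genes of highest promoter signal and up to 2 without a promoter summit in alphabetical order; genes named for a motif match, wg, and stated counts were added after their values were seen. The assignment and motif search were tested on simulated data.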

Additional observations from a re-analysis of the deposited data

How the results depend on the processing

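Alternatives were windows, flanks, list depth, transcripts, support rules and leaving out each replicate, read as summits supported in both others. With support in all 3 replicates, chosen after seeing the data, 8 members and 23 other Wnt genes had a promoter summit, against 34.5% of protein-coding genes. The 9 members with a promoter summit ranged from 7 to 10, and were 8 without any 1 replicate. The background of 42.9% was 38% and 46.8% with windows of 250 and 1000 bp, 29.2% in the stronger 50% of the list, 59.3% with all pooled entries, and 35.8% to 37.4% without 1 replicate. The other Wnt genes numbered 22 in the stronger 50%, and 25 to 30 without 1 replicate. With no flank, 5 members held a summit and the 29 summits became 12. The share of all protein-coding genes with no flank was not counted, so the 5 have no background beside them. They were 19 in the stronger 50%, 77 with all pooled entries, and 22 to 24 without 1 replicate. The summits supported numbered 22 to 24 without 1 replicate, and 17 to 25 under other support rules. The GAAC count of 4 was also 4 without each replicate, 3 in windows of 50 bp and 6 in windows of 200 bp. The cause of these shifts was not tested. The lists hold no read counts, so depth limits the weak summits to an unknown extent. No paired analysis was possible because there was 1 group.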
